A study of Rattus norvegicus with 56 samples.

Results

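Trimethylation of histone H3 at lysine 27 (H3K27me3) was compared between the injured-side brain tissue of old rats given plasma of young rats and that of old rats given plasma of old rats. The comparison rests on the authors' H3K27me3 peak lists of these groups, chosen by mark and treatment and not by any measured value. They hold 37241 peaks with 3-month plasma and 51178 peaks with 22-month plasma, together 88419 of the 1619269 peaks in the 16 lists of the study. In the text, 3-month plasma and 22-month plasma name the age of the rats whose plasma was given.

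All rats in the study had bled into the brain (intracerebral haemorrhage), and no group without haemorrhage is among the samples. H3K4me3, H3K9ac and H3K27me3 were mapped by ChIP-seq, sequencing of the DNA that an antibody against the mark pulls down, in 56 libraries, of which 28 are input chromatin. Both plasma groups are ipsilateral brain tissue, from the side of the haemorrhage, of rats labelled 21 months old. In the series text the old rats are 22 months old. The groups without plasma, called untreated here, are ipsilateral and contralateral tissue of rats labelled 13 and 21 months old, and their lists pool 2 ChIP and 2 input libraries each. Each plasma list was made from 1 ChIP and 1 input library. The labels do not say how plasma was given, how many animals a library holds, or whether the rats without plasma received another injection. Strain and sex are not stated in those sources. The tissue label was not checked against marker genes, since genes were not assigned to the coordinates here.

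H3K27me3 is the mark written by Polycomb repressive complex 2, whose catalytic subunit is EZH2 or EZH1, and it keeps developmental regulator genes silent in cells where they are not used. In differentiated tissue such as the brain it forms wide domains over clusters of such genes and many narrow patches elsewhere. Some CpG-rich promoters carry H3K27me3 together with H3K4me3, a mark of active and poised promoters, and are called bivalent, while H3K9ac, a mark of active promoters and enhancers, is usually low where H3K27me3 is high. In a piece of tissue these marks can also lie on the same region in different cells.

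With 1 ChIP library for each plasma the spread between replicates is unknown, and a difference between the plasmas could not be tested. Shares are given with 95% Wilson intervals, which cover counting error only and treat neighbouring peaks as independent, which they are not. In bulk tissue, fewer cells with the mark and less mark per cell cannot be told apart. The authors' caller kept 41700562 ChIP tags and 43282397 input tags with 3-month plasma, and 44383604 ChIP tags and 50920353 input tags with 22-month plasma, after it set aside 38% to 46% of the tags as duplicates. The untreated 21-month ipsilateral H3K27me3 list rests on 117740131 ChIP tags and holds 300668 peaks. A region outside a plasma list can thus still carry the mark below the caller's threshold, and plasma-only means only that the other list has no peak there.

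The 22-month plasma list was the longer, while typical peaks had nearly the same length and fold in both lists. H3K27me3 peaks covered 17.6 Mb with 3-month plasma and 21.6 Mb with 22-month plasma, which is 0.652% and 0.801% of the caller's genome size. The median peak length was 313 bp with 3-month plasma and 300 bp with 22-month plasma. The authors' fold enrichment, the ratio of ChIP tags at the summit to the local background that the caller derives from the input, had a median of 3.36 with 3-month plasma and 3.38 with 22-month plasma. The median number of ChIP tags at the summit was 20 with 3-month plasma and 18 with 22-month plasma. The local background was at about its genome-wide level in 19.3% of peaks with 3-month plasma and 41.7% with 22-month plasma. That level was 3.32 tags and 3.45 tags. A fold of at least 8 was reached by 105 peaks with 3-month plasma and 97 peaks with 22-month plasma. Those peaks had a median length of 2603 bp with 3-month plasma and 711 bp with 22-month plasma, and covered 0.373 Mb and 0.106 Mb. Among peaks with a −log10 q-value of at least 10, a level chosen after seeing the data, the order of the whole lists was turned: 2823 peaks over 4.84 Mb with 3-month plasma stood against 2559 peaks over 4.08 Mb with 22-month plasma. The longer 22-month plasma list thus held more peaks in all and fewer at this level and at a fold of at least 8. The highest single values were with 22-month plasma, a fold of 18.8 against 12.5 and a −log10 q-value of 158.3 against 100.7. Of the peaks at a −log10 q-value of at least 10, 45.9% with 3-month plasma and 33.6% with 22-month plasma overlapped an untreated 21-month ipsilateral H3K4me3 peak. The local background at such sites differed between the lists, as given below.

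Most peaks were found with 1 plasma only. Of the 37241 peaks with 3-month plasma, 10164 overlapped a 22-month plasma peak by at least 1 bp, which is 27.3% (95% interval 26.8% to 27.7%), and 27077 did not (72.7%). Of the 51178 peaks with 22-month plasma, 10378 overlapped a 3-month plasma peak, which is 20.3% (19.9% to 20.6%), and 40800 did not (79.7%). In bases the lists had 6.33 Mb in common, 36.0% of the bases covered with 3-month plasma and 29.3% of those covered with 22-month plasma. Of all bases covered with either plasma, 19.3% were covered with both. When the 37241 peaks of highest −log10 q-value were taken from each list, the shared part was 23.2% of either list. The number of overlapping peaks is nearly the same from either side, so lists of equal length give nearly equal shares whatever they hold. The gap between the shares above thus goes with the list lengths.

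Plasma-only peaks were shorter than shared peaks and had lower −log10 q-values, while their fold differed little. Their median length was 289 bp with 3-month plasma and 282 bp with 22-month plasma, against 467 bp and 475 bp for shared peaks. Their median −log10 q-value was 3.62 and 3.43, against 5.56 and 5.28. The median fold of plasma-only peaks was below that of shared peaks with 3-month plasma (3.27 against 3.63) and above it with 22-month plasma (3.40 against 3.32). The share of peaks found with both plasmas was higher in each stronger class of the authors' −log10 q-value, in both lists. Of peaks with a −log10 q-value under 3, 15.7% were shared with 3-month plasma and 11.8% with 22-month plasma. Between 5 and 10 the shares were 35.7% and 28.7%, and between 10 and 20 they were 83.1% and 79.0%. At 20 or more, 724 of 737 peaks with 3-month plasma were shared (98.2%) and 568 of 594 peaks with 22-month plasma (95.6%). Peaks of the strongest classes were also longer, with medians of 2298 bp and 1631.5 bp at 20 or more, against 297 bp and 290 bp under 3. A long peak has more bases in which an overlap can fall, and strength and length were not separated here. Peaks of the other plasma were often close by without touching: the median distance from a plasma-only peak to the nearest peak of the other list was 5882 bp with 3-month plasma and 9753 bp with 22-month plasma. Within 5 kb of a peak of the other plasma lay 47.0% and 37.8% of plasma-only peaks.

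Because narrow peak calling breaks a broad mark into pieces, peaks no more than 1 kb apart were joined into domains. This gave 29931 domains with 3-month plasma and 41248 with 22-month plasma, of which 86.1% and 85.9% were single peaks. The median domain length was 314 bp with 3-month plasma and 305 bp with 22-month plasma, a difference of 9 bp that was 0 bp when peaks up to 5 kb apart were joined. The longest domain measured 88935 bp with 3-month plasma and 85479 bp with 22-month plasma. No base of the other plasma's domains was found in 22972 of the 3-month plasma domains (76.7%, 76.3% to 77.2%) and in 34402 of the 22-month plasma domains (83.4%, 83.0% to 83.8%). The unshared domains were short, with medians of 290 bp and 287 bp, against 713 bp and 829 bp for shared domains.

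The longer a domain was, the more often it was found with both plasmas. Of domains of up to 500 bp, 12.9% were shared with 3-month plasma and 8.18% with 22-month plasma. From 2001 bp to 5000 bp the shares were 89.95% and 80.8%. From 5001 bp to 10000 bp, 242 of 243 domains with 3-month plasma and 279 of 280 with 22-month plasma were shared. All 187 domains over 10 kb with 3-month plasma and all 198 with 22-month plasma were shared. A long domain has more bases in which an overlap can fall, so the order by length describes the lists and was not set against another expectation.

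**Figure D1:**
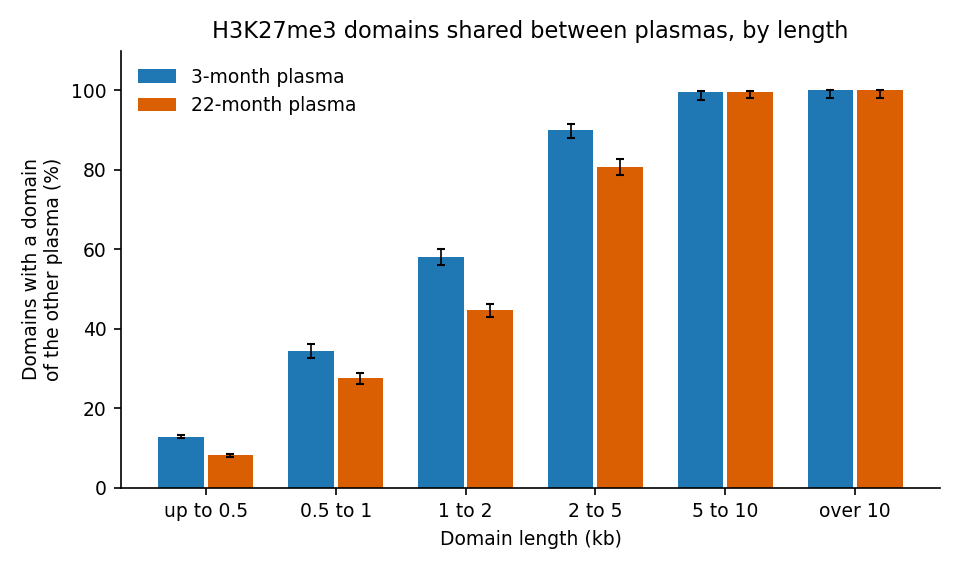
Share of H3K27me3 domains (percent, y axis) that overlap a domain of the other plasma, by domain length in kb (x axis), with 3-month plasma in blue and 22-month plasma in orange. Bars are shares of 1 list each and error bars are 95% Wilson intervals for counting error; the shares go from 12.9% and 8.18% in the shortest class to 100% in the longest.

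The wide domains also had nearly the same extent with either plasma. When the peaks of both lists were joined together within 1 kb, 696 joint domains reached 5 kb, and peaks covered 4.96 Mb of them with 3-month plasma and 5.14 Mb with 22-month plasma, a ratio of 0.966. More bases were covered with 3-month plasma in 311 of them and with 22-month plasma in 385. The median log2 ratio of covered bases, 3-month over 22-month plasma, was −0.05, with quartiles of −0.36 and 0.19. Among the 75 joint domains of at least 20 kb, 38 had more covered bases with 3-month plasma and 37 with 22-month plasma, and the log2 ratio stayed between −0.39 and 0.33. Over all joint domains, most of them short, the ratio of covered bases was 0.813. The lower coverage with 3-month plasma thus lay mainly in short domains.

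**Figure D2:**
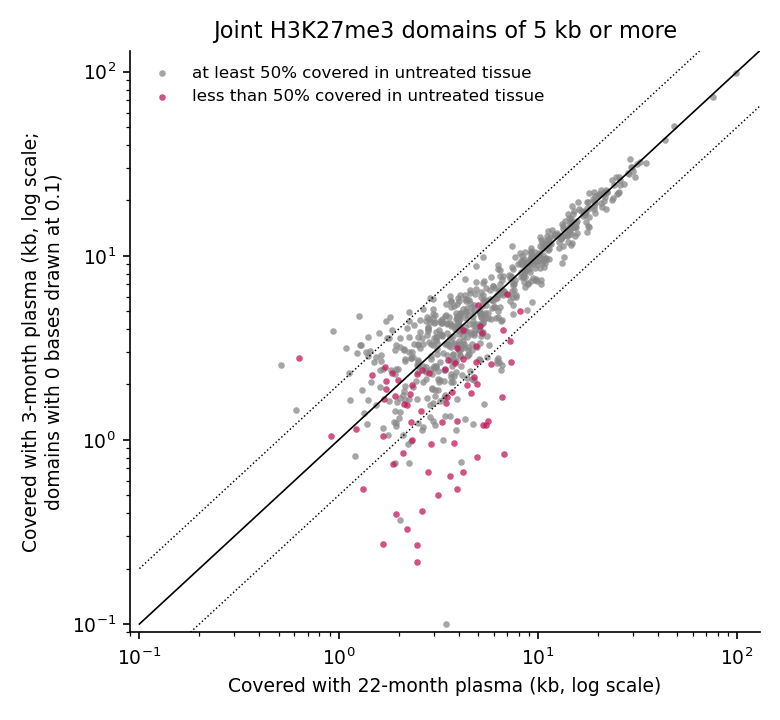
Bases (kb, log axes) covered by H3K27me3 peaks with 22-month plasma (x axis) and 3-month plasma (y axis) in each of the 696 joint domains of at least 5 kb. The solid line marks equal coverage and the dotted lines a 2-fold difference; domains with at least 50% of their length covered in untreated 21-month ipsilateral tissue are grey and the others red, and 61 of the 70 red points lie below the solid line, on the 22-month plasma side.

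The 8 joint domains with the most bases covered in the lower of the lists lay on chromosomes 2, 3, 4, 7, 10 and 15. All coordinates are 1-based and on the build of the authors' lists, which the sources used here do not name, and no gene or sequence was assigned to them. The widest was on chromosome 10 from 84106718 to 84226291, where peaks covered 98.8 kb with 3-month plasma, 98.3 kb with 22-month plasma and 114.6 kb in untreated 21-month ipsilateral tissue. On chromosome 7 from 144506207 to 144591760, the covered lengths were 72.6 kb with 3-month plasma, 75.9 kb with 22-month plasma and 80.1 kb in untreated tissue. Its neighbour on chromosome 7 from 144598159 to 144656661 had 50.5 kb, 48.5 kb and 57.8 kb in the same order. The remaining 5 of these 8 domains were at 3:61578244-61626916, 2:233591526-233630172, 10:84001708-84046220, 15:46422682-46459424 and 4:32355450-32395484. Their covered lengths ran from 30.5 kb to 42.6 kb with 3-month plasma and from 29.8 kb to 43.6 kb with 22-month plasma. Coverage was higher in the deeper untreated list in each of the 8 domains. The highest peak fold in a domain was larger with 3-month plasma in 6 of the 8, for example 11.3 against 7.14 in the first of the chromosome 7 domains. In the second chromosome 7 domain it was lower, at 7.44 against 9.55.

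The widest single peaks of each list were also largely covered in the other. With 3-month plasma they were at 1:203507344-203524710 (17367 bp), 8:68030194-68044915 (14722 bp) and 6:77598535-77611090 (12556 bp), of which 22-month plasma peaks covered 98.7%, 90.5% and 98.6%. With 22-month plasma they were at 2:233613112-233626414 (13303 bp), 6:146775765-146788564 (12800 bp) and 6:77598369-77610918 (12550 bp), of which 3-month plasma peaks covered 91.3%, 88.7% and 98.7%. The last peak of each list lies in the same region of chromosome 6, with a fold of 6.92 with 3-month plasma and 4.61 with 22-month plasma.

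The joint domains with the largest excess of covered bases with 3-month plasma were partly wide domains that kept many bases with either plasma. The largest excess was at 10:84944857-84959294, with 9.90 kb covered with 3-month plasma, 5.29 kb with 22-month plasma and 13.7 kb in untreated 21-month ipsilateral tissue. At 3:61640102-61678842 the covered lengths were 33.4 kb with 3-month plasma and 29.2 kb with 22-month plasma. At 10:50397960-50407701 they were 8.80 kb and 4.90 kb. At 3:3647893-3661386 they were 11.3 kb and 7.44 kb. At 17:24642558-24669529 they were 22.0 kb and 18.2 kb. All 5 were covered over more than 50% of their length in untreated tissue, and 3 of the 5 overlapped an H3K4me3 peak.

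The joint domains with the largest excess with 22-month plasma had little coverage in untreated tissue. At 6:140123499-140132184 peaks covered 0.834 kb with 3-month plasma, 6.79 kb with 22-month plasma and 0.475 kb in untreated 21-month ipsilateral tissue. At 14:22023731-22034491 they covered 1.71 kb, 6.61 kb and 2.01 kb in the same order. At 2:146980000-146993249 they covered 2.65 kb, 7.33 kb and 0.516 kb. At 12:3350213-3357324 they covered 1.27 kb with 3-month plasma and 5.60 kb with 22-month plasma. That region is in no peak of the untreated 21-month ipsilateral list, while the 13-month contralateral list covered 3.66 kb of it. At 6:140133666-140143101 they covered 1.21 kb with 3-month plasma, 5.51 kb with 22-month plasma and 0.843 kb in untreated tissue. None of these 5 domains reached 50% coverage in untreated 21-month ipsilateral tissue, and 3 of the 5 overlapped an H3K4me3 peak, as many as among the domains of 3-month plasma excess. The fold of their highest peak was 5.84 to 7.88 with 22-month plasma and 3.61 to 4.75 with 3-month plasma. In the 5 domains of 3-month plasma excess it was 3.91 to 5.56 with 22-month plasma and 5.65 to 9.30 with 3-month plasma. Each set was picked for its excess of covered bases, so the direction of these folds goes with the choice.

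Domains with peaks of 1 plasma only were smaller. The 5 widest by covered bases with 3-month plasma only were at 10:56959246-56962669, 6:137046173-137050027, 8:33462911-33466117, X:140884816-140887384 and 19:54351861-54355974, with 1.96 kb to 2.50 kb covered. Untreated 21-month ipsilateral peaks covered 2.57 kb to 3.61 kb of each. The 5 widest with 22-month plasma only were at 6:140077072-140081831, 3:142343639-142350349, 4:29785630-29790015, 14:22035574-22039264 and 4:49197951-49202904, with 2.98 kb to 3.66 kb covered. The domain on chromosome 14 lies beside the named domain of 22-month plasma excess there, and that on chromosome 6 lies before the named pair, with other joint domains between. Untreated peaks covered 0 kb of the chromosome 6 domain and 0.555 kb of the chromosome 14 domain. The other three had 2.89 kb to 3.88 kb covered in untreated tissue. H3K4me3 peaks overlapped 3 of the 5 domains found with 3-month plasma only and 0 of the 5 found with 22-month plasma only.

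Over all 696 joint domains of at least 5 kb, coverage differed by more than 2-fold toward 3-month plasma in 21 (3.02%) and toward 22-month plasma in 65 (9.34%). Of the 21 domains toward 3-month plasma, 20 had at least 50% of their length covered in untreated 21-month ipsilateral tissue (95.2%, 77.3% to 99.2%), close to the 576 of the 610 domains within 2-fold (94.4%). Of the 65 domains toward 22-month plasma, 30 did (46.2%, 34.6% to 58.1%). H3K4me3 overlapped 12 of the 21 domains toward 3-month plasma (57.1%), 20 of the 65 toward 22-month plasma (30.8%) and 406 of the 610 within 2-fold (66.6%). Both shares were lower for the domains toward 22-month plasma than for the domains of like coverage. Several of the domains toward 22-month plasma lie close together on chromosome 6, between 140022509 and 140281125. Each of these was covered over less than 50% of its length in untreated tissue. Such neighbours are not independent, so the counting intervals do not measure this difference. The domains of like coverage were longer, with a median of 8201 bp against 6489 bp. In the 22-month plasma list, H3K4me3 overlapped 76.3% of domains over 10 kb and 57.5% of those from 5001 bp to 10000 bp. The part of length in these shares was not tested.

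The strongest peaks found with 1 plasma only were narrow. With 3-month plasma these were at 20:4647913-4648557 (645 bp, fold 10.6, −log10 q-value 100.7), at 20:4767475-4768103 (629 bp, fold 6.35) and at 7:20732850-20733333 (484 bp, fold 9.80). All of them were covered in each of the 4 untreated H3K27me3 lists. With 22-month plasma they were at 1:265469252-265469685 (434 bp, fold 16.3, −log10 q-value 93.4), at 1:180971922-180972993 (1072 bp, fold 3.14) and at 3:134026669-134027238 (570 bp, fold 10.4). The first of these was covered in whole or in part in 3 untreated lists, and not in that of 21-month ipsilateral tissue. The others were in a peak of the 13-month contralateral list only. The peak on chromosome 1 of fold 3.14 had a local background of 73.2 tags, against a median of 4.21 tags over the 22-month plasma list. Single peaks of this kind were far narrower than the domains described above.

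The presence of the peaks in tissue without plasma differed between the lists. Of all peaks with 3-month plasma, 65.2% overlapped an untreated 21-month ipsilateral H3K27me3 peak, and of all peaks with 22-month plasma, 50.3% did. Shared peaks had close shares, 84.5% and 85.4%. The gap lay among plasma-only peaks, of which 57.9% with 3-month plasma and 41.4% with 22-month plasma overlapped an untreated peak. With equal numbers of peaks the plasma-only shares were 59.3% and 41.4%. The order was the same for plasma-only peaks against each other untreated list. For 21-month contralateral tissue the shares were 52.7% and 31.6%, for 13-month ipsilateral tissue 36.9% and 25.9%, and for 13-month contralateral tissue 21.1% and 8.71%. By strength, the untreated share of plasma-only peaks with 3-month plasma went from 55.5% below a −log10 q-value of 3 to 87.0% between 10 and 20. With 22-month plasma it went from 38.7% to 50.8% over the same classes, and of the 26 plasma-only peaks at 20 or more, 11.5% overlapped an untreated peak.

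**Figure D3:**
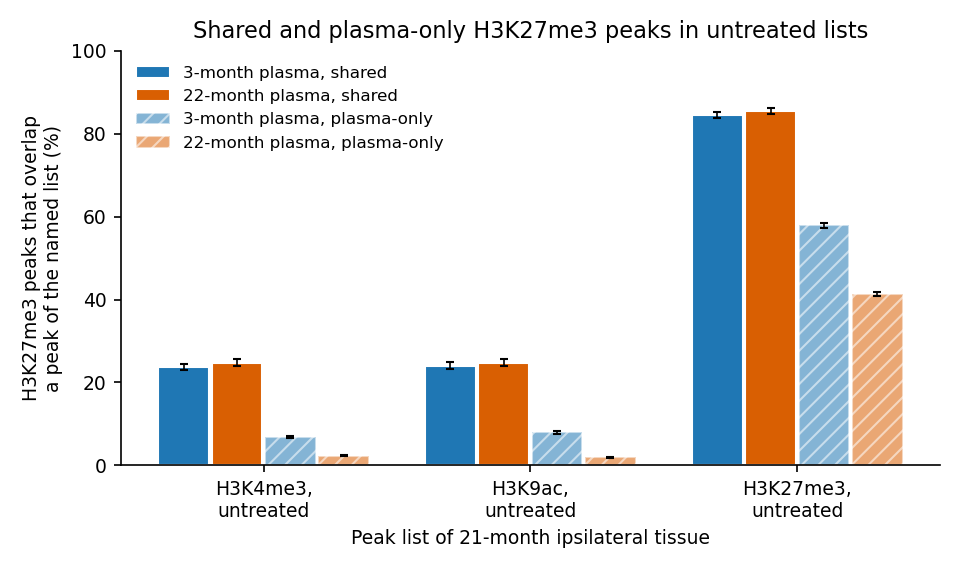
Share of H3K27me3 peaks (percent, y axis) that overlap a peak of the untreated 21-month ipsilateral list of H3K4me3, H3K9ac or H3K27me3 (x axis), for peaks shared by both plasmas (solid bars) and plasma-only peaks (hatched bars). Blue is 3-month plasma and orange 22-month plasma, error bars are 95% Wilson intervals for counting error; solid bars differ little between the plasmas and hatched bars are higher with 3-month plasma.

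H3K4me3 was not profiled with plasma, so the H3K4me3 list of untreated 21-month ipsilateral tissue, with 30356 peaks, served as the common reference for promoter-type sites. Of the peaks with 3-month plasma, 4249 overlapped an H3K4me3 peak (11.4%, 11.1% to 11.7%). Of those with 22-month plasma, 3492 did (6.82%, 6.61% to 7.04%), a difference of 4.59 percentage points (4.20 to 4.98). Shared peaks again had close shares, 23.7% with 3-month plasma and 24.7% with 22-month plasma. Among plasma-only peaks the shares were 6.79% and 2.27%, and with equal numbers of peaks 7.27% and 2.39%. The difference grew with peak strength: between a −log10 q-value of 10 and 20, 122 of 353 plasma-only peaks with 3-month plasma (34.6%) and 37 of 413 with 22-month plasma (8.96%) were on H3K4me3.

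Counted from the H3K4me3 side, 25783 of the 30356 sites (84.9%) had no H3K27me3 peak with either plasma. Both plasmas had one at 2480 sites (8.17%), 3-month plasma alone at 1404 sites (4.63%) and 22-month plasma alone at 689 sites (2.27%). Untreated 21-month ipsilateral tissue had an H3K27me3 peak at 93.0% of the sites found with both plasmas, at 92.2% of those found with 3-month plasma alone, at 68.2% of those with 22-month plasma alone and at 17.5% of those with neither. The H3K4me3 peaks at sites with 22-month plasma alone were the shortest, with a median of 343 bp, against 861 bp at sites with 3-month plasma alone. Their H3K4me3 fold was the lowest too, with a median of 3.77 against 5.94. Sites marked with 3-month plasma alone thus had H3K4me3 peaks as long as those marked with both (831 bp), and most also carried H3K27me3 without plasma.

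The local background at H3K27me3 peaks on H3K4me3 differed between the lists as well. The caller's background at a summit, recovered from the pileup and the fold, had a median of 8.67 tags at H3K27me3 peaks on H3K4me3 with 3-month plasma and of 13.9 tags with 22-month plasma. Off H3K4me3 the medians were 4.87 and 3.97 tags. The size of this difference was seen in peaks found exactly once in each list. Of these 7320 pairs, 1559 lay on H3K4me3, and there the median, per 1000000 kept ChIP tags of the library, was 0.863 tags with 3-month plasma and 0.969 tags with 22-month plasma. The background in the same pairs had medians of 8.84 tags and 14.8 tags, and the fold had medians of 3.73 and 2.84. The fold was higher with 3-month plasma in 1151 of the 1559 pairs (73.8%), while the scaled ChIP tags were higher with 3-month plasma in 529 (33.9%). The median log2 ratio, 3-month over 22-month plasma, was −0.13 for scaled ChIP tags (quartiles −0.34 and 0.09), −0.56 for background scaled alike (−0.90 and −0.16) and 0.36 for fold (−0.02 and 0.71).

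In the 5761 pairs off H3K4me3 the plasmas were close on every one of these measures. Scaled ChIP tags had medians of 0.528 with 3-month plasma and 0.518 with 22-month plasma. The median log2 ratios were 0.01 for ChIP tags, 0.03 for background and 0.03 for fold. In these pairs the local background thus differed between the libraries at H3K4me3 sites and was nearly equal elsewhere. The pairs are 7320 of the 76810 regions with a peak of either list, kept because both lists had a peak there. In plasma-only peaks the median background was higher with 3-month plasma. It was 8.29 tags against 7.14 on H3K4me3, and 4.82 tags against 3.66 off it. The part of the local background in the number of 3-month plasma peaks on H3K4me3, and in the higher summit folds of the wide domains, was not tested.

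**Figure D4:**
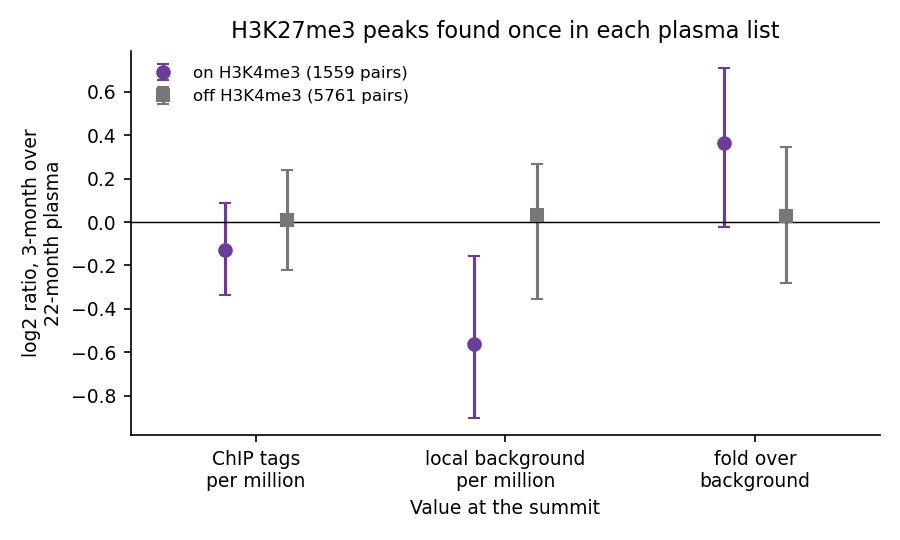
Log2 ratio of 3-month over 22-month plasma (y axis) for ChIP tags and local background, both scaled to the library's kept ChIP tags, and fold at the summit (x axis), in H3K27me3 peaks found once in each list. Points are medians and bars run from the lower to the upper quartile over pairs, on H3K4me3 (purple, 1559 pairs) and off it (grey, 5761 pairs); on H3K4me3 the background lies below 0 and the fold above it, and off H3K4me3 the medians are 0.01, 0.03 and 0.03.

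Overlap with H3K9ac depended on which acetylation list was used. Of the H3K27me3 peaks, 7.15% with 3-month plasma and 7.14% with 22-month plasma lay on an H3K9ac peak of the same plasma, a difference of 0.00361 percentage points (−0.339 to 0.349). The H3K9ac lists themselves differ in length, with 50651 peaks for 3-month plasma and 123863 for 22-month plasma. Against the 1 untreated 21-month ipsilateral H3K9ac list, the shares were 12.3% and 6.59%. Plasma-only peaks overlapped the untreated H3K9ac list in 7.97% of cases with 3-month plasma and 1.97% with 22-month plasma, while shared peaks did in 24.0% and 24.7%. The pattern against untreated H3K9ac was thus that seen against H3K4me3. With the 22-month plasma H3K9ac list cut to its top 50651 peaks by −log10 q-value, the own-plasma shares were 7.15% and 5.51%, a difference of 1.64 percentage points (1.31 to 1.96), so the equal shares on the own lists were not kept at equal H3K9ac list lengths.

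More of the wide domains held an H3K9ac peak with 22-month plasma than with 3-month plasma. Of the 250 joint H3K27me3 domains of at least 10 kb, 25.2% (20.2% to 30.9%) overlapped an H3K9ac peak of 3-month plasma and 73.2% (67.4% to 78.3%) one of 22-month plasma. With the 22-month plasma H3K9ac list cut to its top 50651 peaks, the share was 54.4% (48.2% to 60.5%). In untreated 21-month ipsilateral tissue it was 66.0%. The 3-month plasma H3K9ac list was smaller as a whole, covering 36.3 Mb against 84.0 Mb with 22-month plasma. It held 682 peaks of a fold of at least 8, against 10261. Of the H3K4me3 sites with no H3K27me3 peak of either plasma, 64.0% overlapped 3-month plasma H3K9ac and 76.1% overlapped 22-month plasma H3K9ac. The part of these list-wide differences in the domain shares was not tested. The widest domain, on chromosome 10, held no H3K9ac peak with 3-month plasma and 1260 bp of H3K9ac peaks with 22-month plasma.

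By chromosome, the 3-month plasma list was the shorter on nearly all. The ratio of peak numbers, 3-month over 22-month plasma, was 0.728 over the whole lists and had a median of 0.718 over the 21 chromosomes with Y left out. It ran from 0.636 on chromosome 2 to 1.37 on chromosome 12, where 960 peaks with 3-month plasma stood against 702 with 22-month plasma. Chromosome 12 was the only one with more peaks with 3-month plasma, and chromosome X followed with a ratio of 0.993 and chromosome 20 with 0.929. In covered bases the ratio exceeded 1 on chromosome 12 (1.28), X (1.10) and 20 (1.04). The share of peaks on H3K4me3 was higher with 3-month plasma on 20 of the 21 chromosomes, and chromosome 12 was the exception, with 11.5% against 12.3%.

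**Figure D5:**
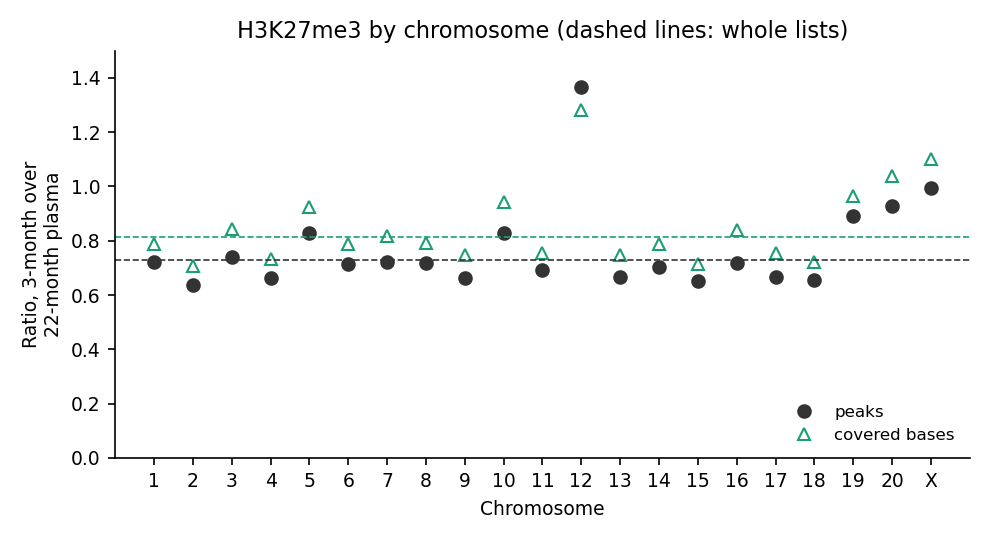
Ratio of 3-month over 22-month plasma (y axis) in the number of H3K27me3 peaks (filled circles) and in covered bases (open triangles) on each chromosome (x axis). Dashed lines give the ratios of the whole lists, 0.728 for peaks and 0.813 for bases; each point is 1 library against 1 library with no error bar, and chromosome 12 stands highest, at 1.37 and 1.28.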

How the data were processed

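The labels' protocols name sonicated chromatin, a ThruPLEX DNA-seq kit and paired-end sequencing on a NextSeq instrument. Tools named in the submitters' processing notes are Bowtie2, cutadapt and HOMER, without role or version. Per the file headers, the caller was MACS 2.1.1.20160309, run for narrow peaks with a q-value cutoff of 0.05, a genome size of 2.70 Gb, tags handled as single-end and no more than 1 tag per position. Duplicate removal and narrow calling shorten and split a broad mark. The deposited lists give for each peak a pileup (a signal or coverage value in tags), a fold enrichment (a ratio to local background) and a −log10 q-value, all the authors' own. In both plasma H3K27me3 lists the ChIP library was the smaller, so the pileup is in unscaled tags, and it was scaled to 1000000 kept ChIP tags. Local background was computed as (pileup + 1) / fold − 1, with the caller's pseudocount of 1 tag.

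Overlaps of at least 1 bp, covered bases, joined domains and distances were computed with numpy 2.4.6 and pandas 2.3.3 under Python 3.11.15, Wilson intervals with scipy 1.17.1 and figures with matplotlib 3.10.9, and the interval functions were tested on simulated data. Groups were taken from the labels. With 1 library per plasma no test was made. Named regions, on assembled chromosomes, were the 8 joint domains with most bases covered in the lower list, the 5 of largest excess and the 5 of most covered bases found in 1 list only for each plasma, the 3 plasma-only peaks of highest −log10 q-value for each plasma, and the 3 widest peaks of each list. Gene lists written for the design were left out, since the coordinates were not annotated here. The regions, lists and comparisons were chosen with earlier results of these data known. The alternatives were equal numbers of peaks, stricter thresholds, other overlaps and joining distances, assembled chromosomes only and other H3K9ac lists.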

Additional observations from a re-analysis of the deposited data

How the results depend on the processing

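No paired analysis was possible because each plasma group has 1 ChIP library, and for the same reason leaving out a library was not possible. Below, values go in the order 3-month then 22-month plasma. With equal numbers of peaks by −log10 q-value, shared peaks were 23.2% and 23.2%, shared bases 20.5%, unshared domains 80.8% and 81.1%, the H3K4me3 difference 3.53 percentage points and the own-plasma H3K9ac difference −0.924. With equal numbers by fold they were 18.2% and 17.5%, 16.1%, 84.3% and 84.8%, 6.78 and 3.06, and the domain length difference was 15 bp. At a −log10 q-value of at least 3, shared peaks with 22-month plasma were 21.2%, shared bases 22.3%, unshared domains with 3-month plasma 77.95%, the length difference 14 bp and the H3K4me3 difference 5.21. At 10 or more, chosen after seeing the data, shared peaks were 51.0% and 57.0%, shared bases 45.3%, unshared domains 53.6% and 48.1%, the length difference 252 bp, the H3K4me3 difference 12.2 and the H3K9ac difference −5.68. Both lists were cut at 10 here, so a weaker peak of the other plasma did not count. Of the peaks at this level, 13.0% and 17.2% had no peak of any strength in the other list. An overlap of at least 50% of the peak gave shared peaks of 19.8% and 14.8% and an H3K4me3 difference of 3.96. Joining at 0 bp gave unshared domains of 72.7% and 79.7%, and joining at 5 kb gave 72.2% and 79.1% with a length difference of 0 bp. The H3K9ac difference was 1.64 with equal numbers of H3K9ac peaks and 5.75 with the untreated H3K9ac list. On assembled chromosomes only, all 8 values moved by less than their intervals. The H3K4me3 difference was above 0 in every alternative run, while the H3K9ac difference took either sign. The cause of these shifts was not tested. The part of sequencing depth in these values was not tested: 44383604 ChIP tags were kept with 22-month plasma and 41700562 with 3-month plasma.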

Other observations

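In 1 Mb windows with a peak of either plasma, 2699 in all, 654 held more H3K27me3 peaks with 3-month plasma and 1861 more with 22-month plasma. The windows with more peaks with 3-month plasma held a median of 15 untreated 21-month ipsilateral H3K4me3 peaks, and those with more with 22-month plasma a median of 8. The window from 171 to 172 Mb on chromosome 5 had 77 peaks with 3-month plasma and 19 with 22-month plasma. The window from 52 to 53 Mb on chromosome 19 had 53 and 17, and the window from 50 to 51 Mb on chromosome 12 had 40 and 7. In the other direction, the window from 140 to 141 Mb on chromosome 6 had 60 peaks with 3-month plasma and 132 with 22-month plasma. It holds 3 of the 10 named domains with more or only 22-month plasma coverage, all between 140077072 and 140143101. The neighbouring windows from 131 to 133 Mb on chromosome 1 had 131 and 39 peaks with 3-month plasma and 216 and 94 with 22-month plasma. Other windows of large difference toward 3-month plasma were less uneven. They had 145 against 97 peaks from 42 to 43 Mb on chromosome 12 and 128 against 80 from 83 to 84 Mb on chromosome 10. From 170 to 171 Mb on chromosome 3 there were 89 against 50. All these windows were taken from those of largest difference, so their counts are a description.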
